A study of Mus musculus with 10 samples.

Results

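Oxidative phosphorylation genes were followed as 2 sets that come from different genomes: 82 protein-coding nuclear genes and the 13 mRNA genes of mitochondrial DNA, 95 of the 45777 genes in the deposited table. The nuclear genes were taken by symbol, as those starting with Ndufa, Ndufb, Ndufc, Ndufs or Ndufv and a digit, with Cox4 to Cox8, with Uqcr or with Atp5. The mitochondrial genes were ND1 to ND6 and ND4L, COX1 to COX3, CYTB, ATP6 and ATP8. Members were chosen by name and not by any measured value. Of the 95 genes, 79 nuclear and all 13 mitochondrial genes passed the filter on low counts that left 21523 genes, and Cox6b2, Cox8b and Cox8c did not.

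RNA had been sequenced from 10 tumors of MC38, a mouse colon carcinoma line grown under the skin of female wild-type C57BL/6 mice, after fixation in formalin and embedding in paraffin. The control group, which the labels give as untreated and the methods as given vehicle, had 2 tumors (replicates 3 and 5). The aPD-1 group, given an antibody against the checkpoint receptor PD-1, had 2 tumors (replicates 3 and 4). The YH29407 group, given an oral inhibitor of the tryptophan-degrading enzyme IDO1, had 3 tumors (replicates 1, 3 and 4), and the YH29407+aPD-1 combination group also had 3 (replicates 2, 3 and 4). The mice were bought at 6 weeks of age, and their age at sampling and how the tumors were paired or batched were not given in the sources used here. MC38 is 1 line, and each library is a whole tumor that holds host cells as well as tumor cells.

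Oxidative phosphorylation couples electron transport in the inner mitochondrial membrane to the making of ATP. Complex I takes electrons from NADH, complex III passes them from ubiquinol to cytochrome c, complex IV hands them to oxygen, and ATP synthase uses the proton gradient that complexes I, III and IV build. Each of these complexes joins subunits made in the cytosol from nuclear genes with subunits made inside mitochondria from mitochondrial DNA, while complex II is wholly nuclear. Mitochondrial mRNAs come from long transcripts of both strands that are cut and polyadenylated in the organelle, and nuclear genes are transcribed 1 by 1, so that the sets are made by separate machineries. T cells and tumor cells both need these complexes for growth, and in bulk tissue fewer cells of a type and less RNA per cell cannot be told apart.

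Libraries held 56170804 to 76287659 counts, with the fewest in combination replicate 4. This library stood apart from the other 9. Pseudogenes took 7.09% of its counts, against 3.04% to 3.70% elsewhere. The 1438 olfactory and vomeronasal receptor genes were checked as a sign of library quality. They summed to 1352 CPM (counts scaled by TMM to the size of each library) in this library, against 97.8 to 378 CPM elsewhere. Across genes, the median of its Spearman correlations to the rest was 0.908, and the other libraries had medians from 0.961 to 0.974. The main differences that rest on it are therefore given with and without it. The tumors are labelled as colon cells, but Cdx2, which defines intestinal epithelium, was at most 0.0539 CPM and Krt8 at most 0.462 CPM, and the 10 colon epithelium genes checked summed to 3.20 to 11.4 CPM per library.

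The mitochondrial genes were 3.75 to 16.5 times higher in combination replicate 4 than the median of the other 9 tumors, which lay much closer together. They took 2.28% of all counts in that library. They took 0.560% and 0.413% in combination replicates 2 and 3, 0.438%, 0.450% and 0.429% in YH29407 replicates 1, 3 and 4, 0.496% and 0.450% in aPD-1 replicates 3 and 4, and 0.426% and 0.488% in control replicates 3 and 5. The nuclear genes took 0.841% of counts in combination replicate 4 and 0.598% to 0.658% in the others. Thus 1 library set the mitochondrial share of the combination group, and its other 2 lay on both sides of the YH29407 range.

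**Figure D1:**
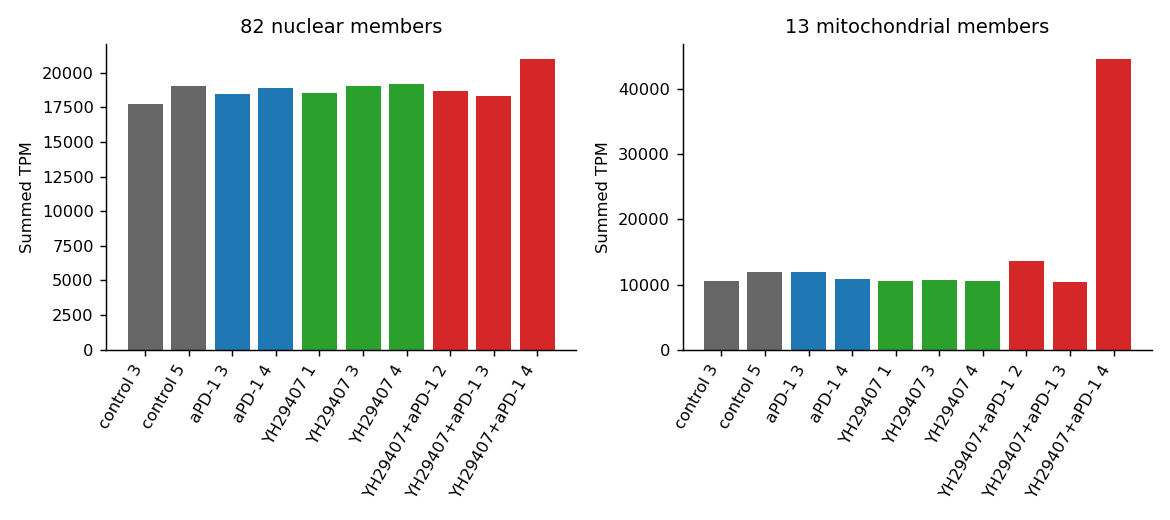
Bars give the summed TPM (length-corrected transcript shares) of the nuclear and the mitochondrial genes in each of the 10 libraries, colored by group. The nuclear sums ran from 17762 to 21021 TPM, and the mitochondrial sum was 44728 TPM in combination replicate 4 against 10453 to 13642 TPM in the other 9.

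On the TPM scale, which corrects for transcript length, the log2 ratio of the mitochondrial sum to the nuclear sum was below 0 in 9 libraries. It was −0.75 and −0.68 in the control tumors, −0.64 and −0.80 with aPD-1, −0.81, −0.84 and −0.86 with YH29407, and −0.45 and −0.81 in combination replicates 2 and 3. In combination replicate 4 it was 1.09. Group means were −0.72 ± 0.05 for control (SD, n = 2), −0.72 ± 0.11 for aPD-1 (SD, n = 2), −0.84 ± 0.03 for YH29407 (SD, n = 3) and −0.06 ± 1.01 for the combination (SD, n = 3). The combination mean without replicate 4 was −0.63. The YH29407 ratios were among the lowest and overlapped that of combination replicate 3. Levels of one set or gene against another may also carry differences in capture between genes, which TPM does not correct.

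Mitochondrial mRNAs differed from each other in level, and their order was much the same in the 9 tumors other than combination replicate 4. COX1, the catalytic subunit of complex IV, was the most abundant by TPM in 8 libraries, with 1277 to 1628 TPM over the 9 libraries other than combination replicate 4. ND3, a membrane subunit of complex I, was the lowest in all 10, with 164 to 230 TPM in those 9. ND4L led in combination replicate 2 and ND1 in combination replicate 4. In the latter ND6 ranked 3 and COX1 ranked 6 of the 13, while ND6 ranked 12 in each of the other 9 libraries and COX1 ranked 1 or 2. The ratio of the highest to the lowest of the 13 ran from 6.12 to 8.76. Values of ATP8 and ATP6, and of ND4L and ND4, are uncertain since the genes of each pair overlap on the mitochondrial genome (ATP8 at chrM:7766-7969 and ATP6 at chrM:7927-8607; ND4L at chrM:9877-10173 and ND4 at chrM:10167-11544, GRCm38.p6).

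ND6 was the member that differed most from its neighbours. It encodes a core membrane subunit of complex I and is the only mRNA gene on the light-strand transcript, opposite to the other 12. Its level was 69.4, 62.7 and 82.2 CPM in YH29407 replicates 1, 3 and 4, and 122.6, 53.0 and 1293 CPM in combination replicates 2, 3 and 4. With aPD-1 it was 60.7 and 82.9 CPM, and in the control tumors 78.4 and 87.8 CPM. Combination replicates 2 and 4 were above all other libraries and replicate 3 was below them, so that the groups overlapped. ND6 and ND5 lie on opposite strands and overlap at their ends. The ratio of ND6 to ND5 TPM was 1.02 in combination replicate 4 and 0.267 to 0.489 in the other 9 libraries. ND6 lies at chrM:13552-14070 and ND5 at chrM:11742-13565 (GRCm38.p6). How reads of opposite strands were separated was not given in the sources used here, so values of this pair are uncertain as well.

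**Figure D2:**
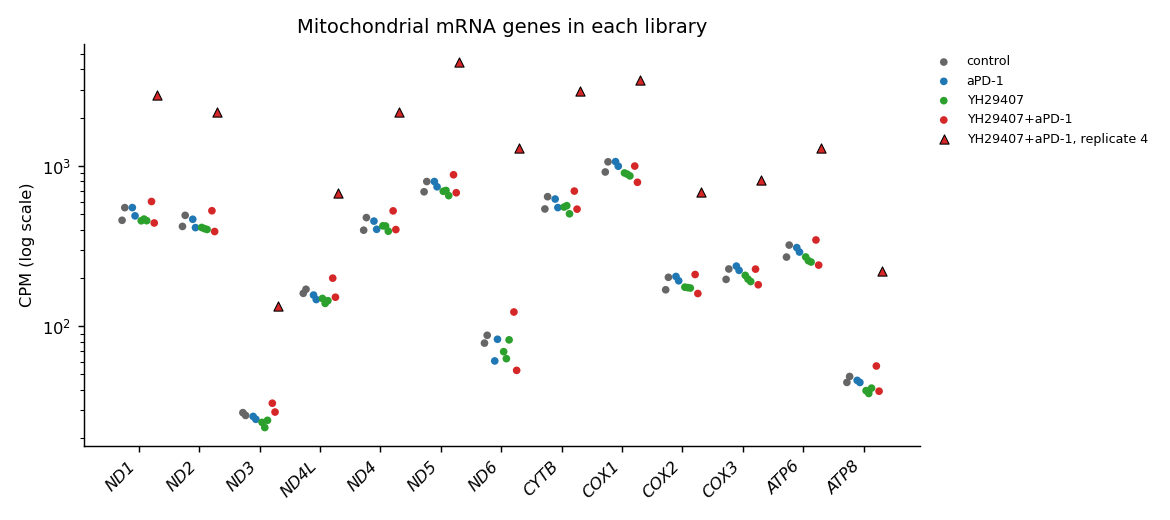
Points give the CPM (log axis) of the 13 mitochondrial mRNA genes in each library, with groups in color and combination replicate 4 as a triangle. That library was the highest for all 13 genes, and ND6 had the widest gap, 1293 CPM against 53.0 to 122.6 CPM.

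The excess in combination replicate 4 was uneven between genes. Against the median of the other 9 libraries, ND6 was 16.5 times higher, ND5 6.31 times, ND1 5.94 times and CYTB, the cytochrome b of complex III, 5.30 times. The complex IV genes COX1, COX2 and COX3 were 3.75, 3.91 and 3.92 times higher, the lowest ratios of the 13. ATP6, the proton channel subunit of ATP synthase, was 4.76 times higher. For COX1 the values were 904, 889 and 867 CPM with YH29407 and 998, 791 and 3437 CPM with the combination. The mitochondrial tRNA genes took 0.0108% of counts in this library, against 0.000995% to 0.00182% in the other 9. The 2 mitochondrial rRNA genes took 0.0685%, within the range of 0.0449% to 0.0995% of the other libraries.

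The combination against YH29407 alone asks what aPD-1 added to the inhibitor. All 13 mitochondrial genes were on the higher side, with a median log2 fold change of 1.34 (0.97 for COX1 to 2.78 for ND6), while the median over all genes was 0.04. By edgeR's quasi-likelihood test with Benjamini-Hochberg adjustment, 0 of the 92 members and 0 of all genes tested (0%) had an adjusted p under 0.05. At an unadjusted p under 0.05, 10 of 13 mitochondrial genes were higher, against 10.6% of all genes, and COX1, COX2 and COX3 did not reach it. That count was 0 without YH29407 replicate 1, 3 or 4, 5 without aPD-1 replicate 3 or control replicate 3 or 5, 7 without aPD-1 replicate 4, and 13 without combination replicate 2 or 3. ND6 had a log2 fold change of 2.78 ± 0.996 (SE, adjusted p = 0.250 by edgeR's quasi-likelihood test), ND5 1.55 ± 0.62 (SE, adjusted p = 0.267) and ND1 1.47 ± 0.60 (SE, adjusted p = 0.270). DESeq2 gave 13 of 13 higher at an unadjusted p under 0.05, against 10.6% of all genes in that tool. It called ND6 alone of the members (adjusted p = 0.0266), against 6.11% of all genes with an adjusted p. With limma on log2(TPM + 1), 0 of 13 were higher at an unadjusted p under 0.05, against 7.81% of all genes.

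Without combination replicate 4 the mitochondrial difference was small. The median log2 fold change of the 13 genes was 0.19, with all 13 still above 0 and 1 of 13, ND3 at 0.33 ± 0.13 (SE, adjusted p = 0.202 by edgeR's quasi-likelihood test), at an unadjusted p under 0.05, against 10.8% of all genes. ND6 was then 0.31 ± 0.33 (SE, adjusted p = 0.647) and COX1 0.02 ± 0.12 (SE, adjusted p = 0.950). In combination replicate 2 all 13 genes were above every YH29407 library. In combination replicate 3, 2 genes were above and 7 were below every YH29407 library. ND3 and ND4L were the 2 of 13 whose libraries did not overlap between the groups with all 3 combination tumors included, against 10.4% of all genes in that direction. ND3 was 25.1, 23.3 and 25.9 CPM with YH29407 and 33.1, 29.1 and 133 CPM with the combination.

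The nuclear genes were split between both directions in the combination against YH29407. Of 79 tested, 37 had a log2 fold change above 0 and 42 below, with a median of −0.05. At an unadjusted p under 0.05 in edgeR's quasi-likelihood test, 2 of 79 were higher against 10.6% of all genes, and 5 were lower against 6.84%. DESeq2 gave 6 higher and 7 lower at that level, against 10.6% and 5.45% of all genes, and limma on log2(TPM + 1) gave 2 and 7, against 7.81% and 8.21%, with 0 nuclear members at an adjusted p under 0.05 in either. Without combination replicate 4 the median was −0.09, with 0 higher and 10 lower, against 10.8% and 9.11% of all genes, and 0 of 79 members at an adjusted p under 0.05 against 0.846% of all genes. Libraries of the groups did not overlap for 3 higher and 12 lower nuclear genes, against 10.4% and 9.1% of all genes.

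**Figure D3:**
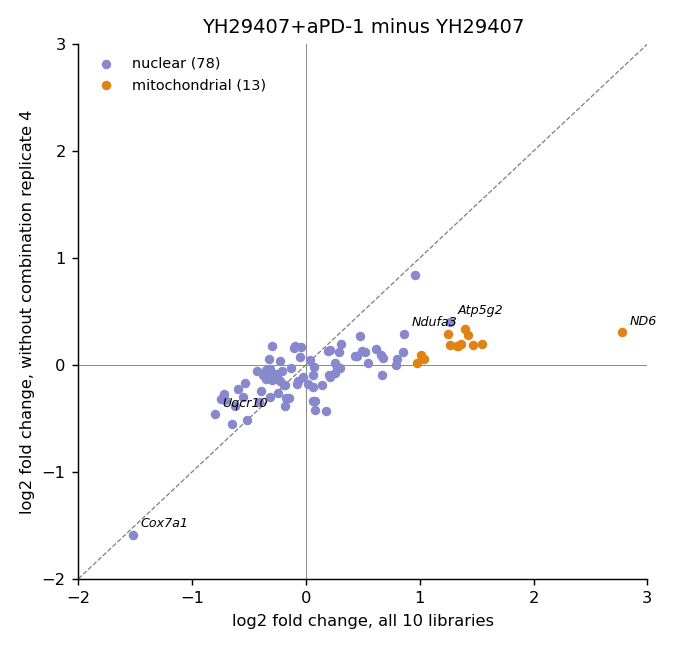
Each point is a member, with its log2 fold change (combination minus YH29407) from all 10 libraries on the horizontal axis and without combination replicate 4 on the vertical axis (Cox7b2, which had no count in the YH29407 libraries, is not drawn). The mitochondrial genes moved from a median of 1.34 to 0.19, and Cox7a1 lay near the dashed line of equal values.

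Of the nuclear genes, combination replicate 4 held both the highest and the lowest values. It was the highest of the 10 libraries for 37 of 79 nuclear genes and the lowest for 29, against 31.8% and 32.6% of all genes. Among 78 nuclear genes with a value in the other libraries, 13 were over 2 times and 16 under 0.5 times the median of the other 9, which is 16.7% and 20.5%, against 24.0% and 25.7% of all genes. The median ratio was 1.12 for complex IV genes (n = 12), 1.11 for complex I genes (n = 39), 0.998 for complex III genes (n = 8) and 1.55 for ATP synthase genes (n = 17), counted over genes with at least 1 CPM. Across 74 members with a transcript sequence, the log2 ratio had a Spearman rho of 0.39 with GC content and −0.16 with transcript length, as a description, since all points share this 1 library. The part of GC content or RNA quality in these ratios was not tested.

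**Figure D4:**
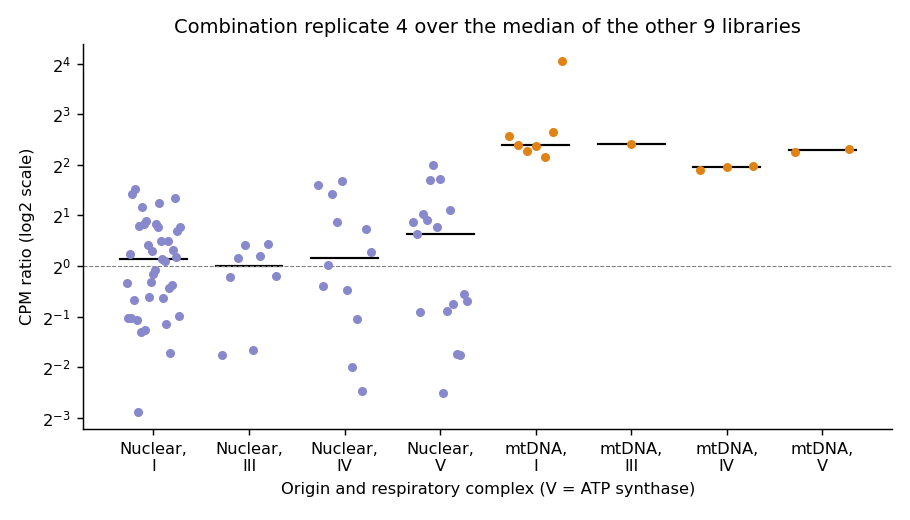
Points give the CPM of each member in combination replicate 4 over its median in the other 9 libraries (log2 axis), by origin and complex, with the median of each group as a line. Nuclear genes spread from 0.136 to 3.97 around a median of 1.11, and the mitochondrial genes lay from 3.75 to 16.5.

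Among the nuclear members farthest from the other libraries there were Atp5g2, Atp5h and Cox6b1 on the higher side and Cox7b on the lower side, chosen after their values were seen. Promoter sequences (RefSeq, GRCm38.p6, 300 bases each, mostly before the gene start) were matched for 66 of the 82 nuclear genes. The ETS motif CCGGAAG, bound by the GABP factor long known to drive respiratory genes, was found in 14 of 66 (21.2%) against 9.12% of 27025 promoters. The degenerate consensus of NRF1, another such factor, was in 5 of 66 (7.58%) against 1.31%, and the YY1 motif ATGGCGG in 9 of 66 (13.6%) against 4.19%. Matches were counted on both strands and could overlap one another. The promoters of these 4 genes are shown since their levels went opposite ways in 1 library, with matches to the 3 motifs in capitals.
Atp5g2 (chr15:102670998-102671297, minus strand): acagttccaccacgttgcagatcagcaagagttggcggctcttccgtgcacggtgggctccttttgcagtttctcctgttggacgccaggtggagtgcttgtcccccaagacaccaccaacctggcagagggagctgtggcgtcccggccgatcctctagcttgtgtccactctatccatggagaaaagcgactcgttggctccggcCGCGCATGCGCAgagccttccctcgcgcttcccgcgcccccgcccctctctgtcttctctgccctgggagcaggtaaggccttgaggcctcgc
Atp5h (chr11:115419870-115420169, minus strand): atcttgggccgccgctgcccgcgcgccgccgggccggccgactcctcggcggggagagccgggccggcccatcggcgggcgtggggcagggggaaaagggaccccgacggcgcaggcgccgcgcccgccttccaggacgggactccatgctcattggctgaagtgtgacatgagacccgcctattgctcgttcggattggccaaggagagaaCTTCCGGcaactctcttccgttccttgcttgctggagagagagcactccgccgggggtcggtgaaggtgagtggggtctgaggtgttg
Cox6b1 (chr7:30626065-30626364, minus strand): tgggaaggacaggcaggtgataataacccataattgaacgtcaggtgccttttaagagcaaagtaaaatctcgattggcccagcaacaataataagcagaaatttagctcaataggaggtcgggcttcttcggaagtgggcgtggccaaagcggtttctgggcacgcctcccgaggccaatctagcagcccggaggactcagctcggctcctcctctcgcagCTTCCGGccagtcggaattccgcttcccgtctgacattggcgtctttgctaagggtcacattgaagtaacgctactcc
Cox7b (chrX:106015450-106015749, plus strand): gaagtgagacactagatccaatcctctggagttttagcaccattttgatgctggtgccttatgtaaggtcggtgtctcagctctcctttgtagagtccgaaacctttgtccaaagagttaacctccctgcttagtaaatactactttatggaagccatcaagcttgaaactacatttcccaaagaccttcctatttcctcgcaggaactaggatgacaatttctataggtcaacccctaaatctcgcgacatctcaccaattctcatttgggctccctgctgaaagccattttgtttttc
The Atp5g2 window held 1 NRF1 match, the Atp5h and Cox6b1 windows 1 ETS match each, and the Cox7b window none of the 3 letter strings. Other far genes did not keep to this picture. Atp5g1, at 3.25 times the median of the other 9 libraries, and Atp5j, at 0.176 times, had no match. Atp5md, at 0.299 times, had 1 ETS match. Whether matches go with these ratios was not tested.

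Complex I had 39 nuclear genes in the table, and all passed the filter. Among them the 2 most abundant were Ndufa5, with 307.6 ± 48.7 TPM (SD, n = 10), and Ndufa4, with 307.1 ± 80.5 TPM (SD, n = 10). Ndufa4 carries a complex I name but is now placed with complex IV. It was 85.0, 61.9 and 76.9 CPM with YH29407 and 50.02, 64.1 and 31.4 CPM with the combination, so that replicate 3 of the combination fell inside the YH29407 range, and its log2 fold change was −0.62 ± 0.26 (SE, adjusted p = 0.277 by edgeR's quasi-likelihood test). Against YH29407, 17 of the 39 were on the higher and 22 on the lower side, with a median of −0.10.

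Core complex I subunits, which carry the flavin, the iron-sulfur clusters or the quinone site, did not go one way in combination replicate 4. Ndufs1, the large iron-sulfur subunit, was 148, 168 and 75.7 CPM in combination replicates 2, 3 and 4, against 161 to 181 CPM with YH29407. Ndufs7, at the quinone site, was 34.5, 29.2 and 74.0 CPM, against 26.1 to 41.8 CPM. Ndufv1, which binds flavin, was 77.7, 76.9 and 132 CPM, against 75.3 to 91.5 CPM.

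Of the accessory subunits, Ndufa3 was among the 2 nuclear genes higher at an unadjusted p under 0.05. It was 34.3, 38.1 and 32.3 CPM with YH29407 and 47.5, 37.6 and 105 CPM with the combination, and its log2 fold change of 0.86 ± 0.35 (SE, adjusted p = 0.268 by edgeR's quasi-likelihood test) was 0.29 ± 0.14 (SE, adjusted p = 0.310) without replicate 4. Ndufb2 had no overlap between the groups, with 24.3, 18.6 and 23.4 CPM against 12.2, 17.9 and 12.3 CPM, and a log2 fold change of −0.65 ± 0.25 (SE, adjusted p = 0.260). Ndufa1, an X-linked subunit, had 48.3, 41.3 and 57.6 CPM against 37.4, 39.4 and 33.5 CPM, and a log2 fold change of −0.42 ± 0.18 (SE, adjusted p = 0.281). Without combination replicate 4 their log2 fold changes were −0.55 and −0.35, with unadjusted p-values of 0.0531 and 0.0609 in edgeR's quasi-likelihood test. Ndufb4b and Ndufb4c are close copies of Ndufb4, so that their low values, 3.4 to 4.1 CPM in these 6 libraries, are uncertain. Pseudogene rows whose symbols fit the same rule, 10 in all, summed to 16.9 to 24.0 CPM per library, and reads shared with such copies cannot be told apart from the genes' own.

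Complex III had 8 nuclear genes, of which 2 were on the higher and 6 on the lower side, with a median log2 fold change of −0.22 with and −0.22 without combination replicate 4. Uqcrb, a small subunit at the quinone site, was the most abundant with 572 ± 46.7 TPM (SD, n = 10), and Uqcrh, the hinge subunit next to cytochrome c1, followed with 275 ± 28.8 TPM (SD, n = 10). Uqcr10, a small subunit, had the lowest log2 fold change of the complex. It was 45.5, 41.7 and 44.1 CPM with YH29407, 30.9, 32.4 and 12.05 CPM with the combination, 41.0 and 39.5 CPM with aPD-1 and 41.9 and 38.8 CPM in the control tumors, so that all 3 combination tumors were below the other 7. Its log2 fold change was −0.80 ± 0.33 (SE, adjusted p = 0.273 by edgeR's quasi-likelihood test) and, without replicate 4, −0.46 ± 0.11 (SE, adjusted p = 0.0901). How many of all genes put the 3 combination tumors below the other 7 was not counted, and Uqcr10 is named for its low value. Against YH29407 alone, 9.1% of all genes had no overlap in that direction.

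Uqcrc1 and Uqcrc2, the core proteins of complex III, went opposite ways in combination replicate 4. Uqcrc1 was 123.2, 120 and 165 CPM with the combination and 113 to 151 CPM with YH29407. Uqcrc2 was 140, 185 and 49.9 CPM with the combination and 150 to 161 CPM with YH29407. Uqcrfs1, the Rieske iron-sulfur protein, was 28.9, 37.8 and 48.4 CPM with the combination and 42.2 to 46.0 CPM with YH29407. Without combination replicate 4, 3 of the 8 complex III genes, Uqcr10, Uqcrq and Uqcrfs1, were lower at an unadjusted p under 0.05, against 9.11% of all genes. Other nuclear members lower at that level included Ndufa7, Ndufb9, Cox7a1, Cox7b, Cox7c and Atp5d, with −1.59 for Cox7a1 on the log2 scale.

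Complex IV has 3 mitochondrial core subunits and small nuclear subunits that occur as tissue forms. The most abundant nuclear genes were Cox6b1, with 1049 ± 437 TPM (SD, n = 10), and Cox5b, with 729 ± 68.6 TPM (SD, n = 10). Cox6b1, a subunit on the intermembrane side, was 167, 180 and 176 CPM with YH29407 and 210, 167 and 567 CPM with the combination, a log2 fold change of 0.85 ± 0.41 (SE, adjusted p = 0.307 by edgeR's quasi-likelihood test) that was 0.12 ± 0.14 (SE, adjusted p = 0.691) without replicate 4. Cox4i1, the ubiquitous form of subunit 4, was 122, 94.9 and 349 CPM with the combination and 104 to 116 CPM with YH29407. Cox7b was 104, 88.6 and 106 CPM with YH29407 and 69.1, 89.4 and 18.8 CPM with the combination. Its log2 fold change was −0.75 ± 0.45 (SE, adjusted p = 0.383) and, without replicate 4, −0.32 ± 0.14 (SE, adjusted p = 0.249). Cox5a, a matrix-side subunit, was 54.8, 64.1 and 51.0 CPM with the combination and 61.0 to 69.1 CPM with YH29407.

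The muscle and heart forms of complex IV subunits were low in all tumors beside their ubiquitous partners. Cox6a2 was 8.8, 6.7 and 7.5 CPM with YH29407 and 7.5, 4.5 and 12.2 CPM with the combination, while its partner Cox6a1 was 91.1 to 271 CPM over the 10 libraries. Cox8b was at most 0.36 CPM and its partner Cox8a at least 130 CPM. Cox7a1 was 1.2, 0.6 and 2.8 CPM with YH29407 and 0.6, 0.4 and 0.6 CPM with the combination, and its partner Cox7a2 was 17.3 to 82.2 CPM. The log2 fold change of Cox7a1 was −1.52 ± 0.59 (SE, adjusted p = 0.260 by edgeR's quasi-likelihood test), and YH29407 replicate 3 overlapped the combination. Without YH29407 replicate 4, which held the highest value, it was −0.71. Of the tissue-restricted forms other than those of muscle and heart, Cox6b2 was at most 0.491 CPM and Cox7b2 at most 0.252 CPM. Cox7b2 had no count in the YH29407 libraries, and Cox8c had no count in any library.

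Sums of skeletal muscle markers were highest in the combination tumors, and the muscle forms of the subunits differed in whether they followed that order. The 14 muscle genes checked summed to 1148, 1301 and 714 CPM in combination replicates 2, 3 and 4, to 22.1, 122 and 25.5 CPM with YH29407, to 472 and 69.1 CPM with aPD-1 and to 52.8 and 403 CPM in the control tumors. Cox8b had 8, 7 and 20 counts in those combination tumors and 0 in each of the other 7. Cox6a2 and Cox7a1 in the combination tumors were within or below the range of the YH29407 tumors, except Cox6a2 in replicate 4. Keratinocyte genes summed to 553 and 170 CPM in combination replicates 2 and 3 and to at most 7.06 CPM elsewhere. The T cell genes summed to 61.5, 67.3 and 22.6 CPM with the combination and to 9.7, 26.6 and 9.2 CPM with YH29407. The part of these cells in the member values was not tested.

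Ndufa4l2 and Cox4i2, forms known to be induced at low oxygen and used by pericytes, differed from each other. Ndufa4l2 was 2.4, 2.7 and 12.9 CPM with YH29407, 7.8, 5.6 and 1.1 CPM with the combination, 6.1 and 9.1 CPM with aPD-1 and 11.9 and 13.4 CPM in the control tumors. Its spread within the YH29407 group alone nearly covered the range of all 10 tumors. Cox4i2 was 0.2 to 0.5 CPM with YH29407 and 0.7 to 0.8 CPM with the combination, with no overlap, and a log2 fold change of 0.96 ± 0.54 (SE, adjusted p = 0.360 by edgeR's quasi-likelihood test). Its level was 0.44 and 0.45 CPM with aPD-1 and 0.21 and 0.74 CPM in the control tumors, so that control replicate 5 fell in the combination range.

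**Figure D5:**
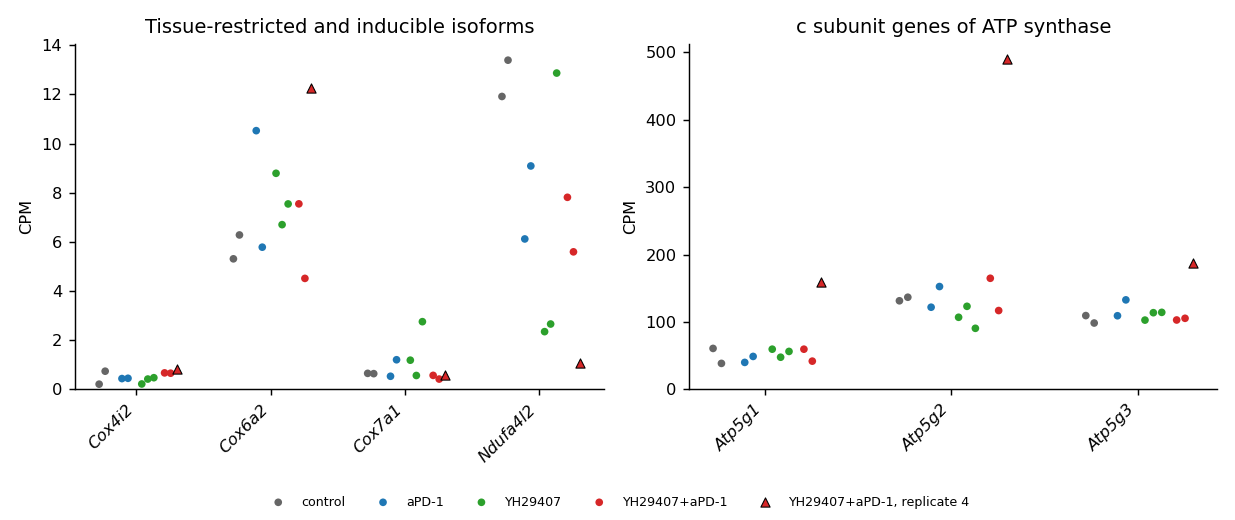
Points give the CPM of 4 tissue-restricted or inducible isoforms (left) and of the 3 c subunit genes of ATP synthase (right) in each library, with groups in color and combination replicate 4 as a triangle. Ndufa4l2 spread from 1.1 to 13.4 CPM, and Atp5g2 was 490 CPM in combination replicate 4 against 90.7 to 165 CPM in the other 9 libraries.

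ATP synthase had 17 nuclear genes, with 9 on the higher and 8 on the lower side and a median log2 fold change of 0.08, which was −0.08 without combination replicate 4. Atp5h, a peripheral stalk subunit, was the most abundant with 1211 ± 519 TPM (SD, n = 10), followed by Atp5o, another stalk subunit, with 855 ± 147 TPM (SD, n = 10). Atp5h was 291, 254 and 235 CPM with YH29407 and 301, 236 and 819 CPM with the combination. Its log2 fold change was 0.80 ± 0.41 (SE, adjusted p = 0.329 by edgeR's quasi-likelihood test) and, without replicate 4, 0.05 ± 0.14 (SE, adjusted p = 0.871). Atp5b, the catalytic beta subunit, was 455, 398 and 665 CPM with the combination and 411 to 440 CPM with YH29407. Atp5a1, the alpha subunit, was 365, 343 and 670 CPM, against 277 to 411 CPM. Atp5c1, the gamma subunit of the central rotor, was 90.4, 116 and 59.1 CPM, against 107 to 116 CPM, so that the 3 catalytic core genes did not go one way in replicate 4.

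The c subunit, of which the membrane rotor ring is built, is made from 3 genes that encode the same mature protein with different import sequences. Atp5g2 had the largest positive log2 fold change of the nuclear genes with counts in both groups. It was 107, 123.3 and 90.7 CPM with YH29407, 165, 117 and 490 CPM with the combination, 122 and 153 CPM with aPD-1 and 131 and 137 CPM in the control tumors. Its log2 fold change was 1.27 ± 0.47 (SE, adjusted p = 0.258 by edgeR's quasi-likelihood test), and 0.40 ± 0.19 (SE, adjusted p = 0.295) without combination replicate 4. Atp5g1 was 59.7, 47.8 and 56.4 CPM with YH29407 and 59.7, 41.9 and 159 CPM with the combination. Atp5g3 was 103, 114 and 114 CPM and 103, 106 and 188 CPM in the same groups. The log2 fold changes of Atp5g1 and Atp5g3, 0.67 ± 0.45 and 0.26 ± 0.24 (SE, adjusted p = 0.423 and 0.556 by edgeR's quasi-likelihood test), turned to −0.10 and −0.08 without combination replicate 4.

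Other genes of the pathway were described by the same fit. Lists of assembly factors, citric acid cycle genes and genes of mitochondrial RNA handling, ribosomes and transcription had more members on the lower than on the higher side against YH29407. Of 48 assembly factors, 33 were on the lower side, with a median of −0.14, and at an unadjusted p under 0.05 there were 1 above and 5 below, beside a median of 0.04 and shares of 10.6% above and 6.84% below over all genes. Of 78 mitochondrial ribosomal proteins 54 were on the lower side (median −0.21, 2 higher and 6 lower), of 16 RNA handling genes 14 (median −0.49, 0 and 3), of 16 citric acid cycle genes 14 (median −0.34, 0 and 3) and of 22 regulators 14 (median −0.23, 2 and 5). None of them had an adjusted p under 0.05 in edgeR's quasi-likelihood test, and the medians without combination replicate 4 were −0.17, −0.14, −0.31, −0.13 and −0.20 in the same order, beside −0.01 over all genes. The 89 cytosolic ribosomal proteins had a median of 0.19, which was 0.03 without that library. Between aPD-1 and control tumors the lists other than cytosolic ribosomal proteins also had more members on the lower side. The counts were 38 of 48, 56 of 78, 12 of 16, 10 of 16 and 17 of 22 in the same order. Their medians were −0.13, −0.12, −0.14, −0.02 and −0.11, beside 0 over all genes.

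Some of these genes are tied to the members by what they do. Tfb1m, a methyltransferase of mitochondrial ribosomal RNA, was 17.6, 10.5 and 16.4 CPM with YH29407 and 7.0, 8.4 and 3.3 CPM with the combination, without overlap, a log2 fold change of −1.26 ± 0.36 (SE, adjusted p = 0.221 by edgeR's quasi-likelihood test). With aPD-1 it was 5.4 and 5.6 CPM, and in the control tumors 9.8 and 9.0 CPM. Mrpl24, of the large mitochondrial ribosomal subunit, was 77.1, 56.5 and 71.2 CPM with YH29407 and 38.0, 43.4 and 34.3 CPM with the combination (log2 fold change −0.82 ± 0.18, SE, adjusted p = 0.189). Lyrm7, which helps to insert the Rieske protein into complex III, was 5.9, 3.5 and 5.6 CPM against 2.2, 3.3 and 1.6 CPM (log2 fold change −1.10 ± 0.34, SE, adjusted p = 0.225). Tfam, which packs mitochondrial DNA and starts its transcription, was 32.5, 41.7 and 14.6 CPM with the combination and 28.5 to 38.1 CPM with YH29407. Combination replicate 4 had the lowest Tfam value of the 10 libraries, as it did for 32.6% of all genes. Tfam was not among the 4 regulators of smallest p and was picked outside that rule.

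The electron carrier cytochrome c has a somatic gene, Cycs, and a testis form, Cyct. Cycs was 175, 153 and 153 CPM with YH29407 and 132, 142 and 93.7 CPM with the combination, without overlap, a log2 fold change of −0.39 ± 0.18 (SE, adjusted p = 0.305 by edgeR's quasi-likelihood test). Cyct was 12.9, 1.09 and 9.48 CPM with YH29407, 0.935 CPM in combination replicate 4 and without a count in combination replicates 2 and 3. It was at most 0.284 CPM in the aPD-1 and control tumors, so that all 3 YH29407 tumors were above the other 7. Cyct is named for its small p, and how many of all genes had that order was not counted. Its log2 fold change for the combination against YH29407 was −4.69 ± 1.72 (SE, adjusted p = 0.256 by edgeR's quasi-likelihood test). Sdha, the flavin subunit of complex II, was 314, 243 and 280 CPM with YH29407 and 217, 257 and 129 CPM with the combination.

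The remaining comparisons used the same fit and share control or YH29407 tumors with the one above. Between the combination and control tumors the mitochondrial median was 1.18 with 13 of 13 above 0, and the nuclear median was −0.08, beside 0.10 over all genes. By edgeR's quasi-likelihood test 0 members had an adjusted p under 0.05, against 0% of all genes. At an unadjusted p under 0.05 no mitochondrial gene was higher, against 6.98% of all genes, and 3 nuclear genes were lower, against 3.12%. These were Cox6c (−0.57), Ndufb3 (−0.55) and Ndufa6 (−0.80), whose adjusted p was 0.460 each. DESeq2 gave 6 mitochondrial genes higher at that level, against 8.67% of all genes, and limma on log2(TPM + 1) gave 0. Without combination replicate 4 the mitochondrial median was 0.06 with 11 of 13 above 0, and the nuclear median was −0.09. At an unadjusted p under 0.05 that fit gave 6 nuclear genes lower and 0 higher, against 4.53% and 7.86% of all genes. The farthest members were ND6 (2.56 ± 1.16, SE), ND5 (1.43 ± 0.71) and ND1 (1.33 ± 0.68) on the higher side, and Ndufa4l2 (−1.39 ± 0.88), Atp5j (−0.83 ± 0.54) and Atp5md (−0.80 ± 0.42) on the lower side. With combination replicate 4 left out these were 0.10, 0.08 and 0.06 for ND6, ND5 and ND1, and −0.90, −0.38 and −0.43 for Ndufa4l2, Atp5j and Atp5md.

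Between YH29407 and control tumors, the 13 mitochondrial genes were all on the lower side by a small amount, with a median log2 fold change of −0.16 (−0.04 without control replicate 5), and the nuclear median was −0.02. None had an adjusted p under 0.05 by edgeR's quasi-likelihood test, against 0% of all genes. At an unadjusted p under 0.05 there was 1 member, Cox6c, a small complex IV subunit, against 1.51% of all genes lower. Combination replicate 4 also enters the estimate of spread that all groups share. Without it, 3 nuclear genes were higher and 4 lower at that level, against 6.25% and 4.9% of all genes. DESeq2 gave 2 nuclear genes lower at that level, against 1.47% of all genes, and limma on log2(TPM + 1) gave 1 higher, against 3.15%. Cox6c was 90.4, 99.0 and 99.6 CPM with YH29407 and 114 and 162 CPM in the control tumors, so that the groups did not overlap, with a log2 fold change of −0.52 ± 0.21 (SE, adjusted p = 1), which was −0.24 without control replicate 5. Apart from Cox7b2, the farthest on the lower side were Ndufa4l2 (−1.09 ± 0.87, SE, and −2.35 without YH29407 replicate 4), Cox6c and Cox7a2l (−0.42 ± 0.30), a supercomplex factor. Cox7a1 (1.21 ± 0.67, and 0.42 without YH29407 replicate 4), Cox6a2 (0.41 ± 0.43) and Ndufa8 (0.36 ± 0.28) were the farthest on the higher side.

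Between aPD-1 and control tumors both sets were near 0, with a mitochondrial median of −0.01 (6 of 13 above 0) and a nuclear median of −0.02. By edgeR's quasi-likelihood test 0 members passed at an adjusted p under 0.05 and 0 at an unadjusted p under 0.05, against 0% and 2.71% of all genes, and DESeq2 and limma on log2(TPM + 1) gave 0 at both. Ndufa4l2 (−0.73 ± 0.98, SE), Ndufc1 (−0.49 ± 0.34) and Atp5md (−0.27 ± 0.47) were the lowest, and Cox7b2 (2.29 ± 2.39), which rested on 16 and 8 counts against 5 and 0, was the highest, before Cox6a2 (0.49 ± 0.47), Cox7a1 (0.43 ± 0.71) and Cox6b1 (0.32 ± 0.49).

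The interaction asks whether the effect of aPD-1 differed with and without YH29407. Its mitochondrial median was 1.38, with 13 of 13 above 0, and the nuclear median was 0.01. By edgeR's quasi-likelihood test 0 of 92 members had an unadjusted or adjusted p under 0.05, against 6.17% and 0% of all genes, and the smallest adjusted p of a mitochondrial gene was 0.838. At an unadjusted p under 0.05, DESeq2 gave 1 mitochondrial gene, against 5.95% of all genes, and limma on log2(TPM + 1) gave 1 nuclear gene, against 5.01%. Without combination replicate 4 the mitochondrial median was 0.20, with 10 of 13 above 0, and the nuclear median −0.07. At an unadjusted p under 0.05 that fit gave 5 nuclear genes lower and 0 higher, against 5.28% and 6.88% of all genes. Apart from Cox7b2, ND6 (2.99 ± 1.51, SE), ND5 (1.5 ± 0.96) and ND3 (1.47 ± 0.82) were farthest on the higher side and Cox7a1 (−1.95 ± 0.92), Cox7b (−0.82 ± 0.71) and Uqcr10 (−0.80 ± 0.52) on the lower side. With that library left out these were 0.51, 0.15 and 0.41 for ND6, ND5 and ND3, and −2.02, −0.39 and −0.46 for Cox7a1, Cox7b and Uqcr10.

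Leaving combination replicate 4 aside, the median spread of single genes over the 9 remaining tumors was similar in the 2 sets, while the set sums differed. The summed CPM ran from 4095 to 5421 for the mitochondrial genes and from 5967 to 6693 for the nuclear genes. The coefficient of variation of CPM had a median of 10.7% over the 13 mitochondrial genes (9.41% to 26.4%) and of 11.05% over the 79 nuclear genes (5.003% to 139%). Atp5b was the steadiest nuclear gene at 5.003%. These are spreads between tumors of all 4 groups, and nothing in the sources used here says whether the tumors of a group differ in litter, cage or day.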

How the data were processed

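The authors sequenced paired-end reads of 100 bp from fixed MC38 tumors, used HISAT2 for alignment to mm10 and StringTie for quantification. The labels name 2 library kits, of which SureSelectXT RNA Direct is a capture protocol. The authors deposited read counts, FPKM and TPM for 45777 genes; FPKM was not used. TPM values, as deposited, served for levels between genes, with no correction for differences in capture between genes. Counts, as deposited, were scaled by TMM, filtered by filterByExpr and fitted with 1 term per group to 10 libraries in edgeR 4.0.16 (quasi-likelihood test, Benjamini-Hochberg over 21523 genes, R 4.3.3). DESeq2 1.42.0 and limma 3.58.1 were alternatives, with other scaling, no filter, a replicate block, fits of the compared groups, pseudocounts of 1 and 0.1 for log2 TPM and each library left out. The fit was tested on simulated data in which no library stood apart, so that test cannot show how the fit handles combination replicate 4. Members and lists were chosen with earlier results of these data known. The pattern for cytosolic ribosomal proteins was narrowed after values were seen, to leave out kinases, and the motif strings were changed after a first search with other lengths. Genes named were all 13 mitochondrial genes, the 2 nuclear genes of highest mean TPM per complex, core subunits, isoforms with partners, c subunit genes, the 3 highest and lowest members per comparison and up to 4 genes of smallest p per other list; some of the last are given as counts only. Values of 1 core subunit are not reported here. Cox7b2 was given no fold in comparisons that use the YH29407 libraries, which held no count of it. Replicates were taken as separate tumors from their numbered titles. The p-values set group differences against the spread between these tumors, estimated over all groups together.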

Additional observations from a re-analysis of the deposited data

How the results depend on the processing

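In 5 comparisons, 0 members had an adjusted p under 0.05 in edgeR under every alternative run, and limma also gave 0. DESeq2 gave 1, ND6 (2.88), for the combination against YH29407. It also called Lyrm7, Mrpl24, Mrpl20, Gabpb2, Tfb1m and Mgme1 in that comparison, in which it called 6.11% of all genes with an adjusted p, and Mrpl24 passed in edgeR without YH29407 replicate 3. Medians are compared with the spread of the set's median between replicates, which was small for nuclear genes, so that small moves count.

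For the combination against YH29407 the nuclear median of −0.05 became −0.0039 with DESeq2 size factors, −0.0075 with the replicate block, −0.0038 in the fit of the groups compared, −0.0054 with DESeq2, and −0.19 with limma on log2(TPM + 1) and on log2(TPM + 0.1). Leaving out 1 library gave −0.087 to 0.03, and the mitochondrial median of 1.34 became 0.188 to 1.79, lowest without combination replicate 4. Against the control group the nuclear median of −0.08 became −0.022 with DESeq2 size factors and with DESeq2, 0.038 with the replicate block, −0.142 with both limma fits and −0.132 to 0.038 with 1 library left out, and the mitochondrial median of 1.18 became 0.062 to 1.62.

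For YH29407 against control the block moved the nuclear median to 0.035 and the mitochondrial median to −0.34, both limma fits gave a nuclear median of 0.037, and leaving out 1 library gave −0.045 to 0.046. For aPD-1 against control the block gave 0.048 and −0.16, and leaving out 1 library gave nuclear medians of −0.042 to 0.039. The nuclear median of the interaction was 0.084 with DESeq2 size factors, 0.076 with DESeq2, −0.17 with the block and with both limma fits, and −0.16 to 0.067 with 1 library left out, and the mitochondrial median was 0.20 to 1.84. With DESeq2 size factors the median over all genes also rose, from 0.04 to 0.10 for the combination against YH29407. Against control it rose from 0.10 to 0.15, and in the interaction from 0.04 to 0.10. With limma on log2(TPM + 1) it was −0.06, 0.01 and −0.07 in the same order. The cause of the moves was not tested.

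The log2 ratio of the sums was −0.44, −0.43, −0.54 and 0.24 on counts for control, aPD-1, YH29407 and the combination, whose mean on TPM was −0.06. As a mean of log2(TPM + 1), which is another quantity, it was 2.65, 2.64, 2.52 and 3.50 for control, aPD-1, YH29407 and the combination. With 1 library left out, Atp5g1 ran from −0.097 to 1.06 and Atp5g3 from −0.077 to 0.456, both lowest without combination replicate 4. For aPD-1 against control, Atp5md ran from −0.501 to 0.0008, Cox7a1 from −0.27 to 0.896 and Cox6a2 from −0.004 to 0.86, and the block gave 0.25 for Atp5md and −0.36 for Cox7a1.

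Correlations of deviations from group means between same-numbered tumors ran from −0.0027 to 0.209. Tumors of different numbers were not compared, so these values cannot show whether replicate numbers pair the tumors. With the replicate block, 0 of 92 members had an unadjusted p under 0.05 in the combination against YH29407, and the nuclear median was −0.0075. Libraries held at least 56170804 counts, so counting error was small for the abundant members, while Cox4i2, Cox7a1, Cox7b2, Cox6b2 and Cox8b rested on few counts.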
